A study of Homo sapiens with 18 samples.

Results

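The transcriptional answer to Nutlin was compared between SJSA-1 cells that had first been exposed to palbociclib and cells that had not, by the interaction of both drugs in a 2 x 2 design. The design took 12 of the 18 libraries of the series, 3 in each of 4 groups, chosen by their titles. SJSA-1 is an established human osteosarcoma line in which the MDM2 and CDK4 genes are both amplified, so the results describe 1 cell line. The groups were DMSO (solvent alone), Nutlin (20 µM for 6 h), PD24 (palbociclib, also named PD0332991, 10 µM for 24 h) and N+PD24 (both drugs). In the treatment scheme of the study, palbociclib was taken off after the first 24 h and Nutlin was given in the 6 h that followed. The labels do not state this removal, nor whether PD24 cells also spent 6 h without palbociclib before harvest. If they did not, N+PD24 against PD24 holds the removal as well as Nutlin. Removal and Nutlin could then not be told apart in that contrast. The remaining groups, PD30 and N+PD30, kept palbociclib on for 30 h and served for side-by-side values. All groups shared the same medium and the same cells without genetic change. The labels do not say whether the 3 libraries of a group came from separate cultures, the study calls them biological triplicates, and p-values measure the spread between these libraries.

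Nutlin occupies the pocket of MDM2 that binds p53, so that p53 escapes ubiquitination, accumulates and induces its target genes, among them MDM2 itself. One of these targets encodes p21 (CDKN1A), which inhibits cyclin-dependent kinases, keeps RB and its relatives hypophosphorylated and thereby lowers the genes that E2F and the DREAM complex control. Palbociclib inhibits CDK4 and CDK6 and reaches the same RB and E2F axis by another route.

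Gene-level read counts summed to between 23720994 and 40231041 per library, with a median of 29740794.5. The first principal component of the 12 libraries (55.3% of the variance) separated the libraries with and without palbociclib and the second (32.4%) those with and without Nutlin. No library stood apart from its group, and no pair of libraries was a duplicate. COL1A1 and SPARC, matrix genes of the osteoblast lineage, lay at 1120 to 3700 and 1400 to 2900 CPM (reads scaled to the library total), whereas the late osteoblast genes BGLAP and IBSP reached at most 0.221 and 0.131. The leukocyte gene PTPRC and the endothelial gene CDH5 stayed at or below 0.492 and 0.123 CPM. Other markers of immune and endothelial cells were higher, with CD68 at 13.6 to 36.2, CD14 at 2.49 to 14.9 and VWF at 1.27 to 13.5 CPM. Of the epithelial markers, KRT18 lay at 86.1 to 251 CPM and EPCAM at 0.361 to 0.852. MDM2 took 0.251% to 0.267% of all reads in DMSO and 1.97% to 2.82% in Nutlin.

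The interaction of a gene is its log2 Nutlin response after palbociclib (N+PD24 against PD24) minus its log2 Nutlin response without it (Nutlin against DMSO), so that 1 unit is a 2-fold difference between responses. Values are reads scaled to a common effective library size, here called scaled reads. A gene was called when its Benjamini-Hochberg adjusted p, from limma across all genes tested, was under 0.05 and its interaction exceeded 1 in either direction. "Rose" and "fell" for a single Nutlin response mean an adjusted p under 0.05.

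The Nutlin responses with and without pretreatment were alike for most genes, and 102 of 16355 genes tested (0.624%) differed by the rule. Of these, 65 had a higher response after palbociclib (0.397% of genes tested) and 37 a lower one (0.226%). A total of 1818 genes had an unadjusted p under 0.05. The 95% interval of the interaction lay within 1 log2 unit of 0 for 10391 genes (63.5%), and for 9690 (83.5%) of the 11600 genes with a mean of at least 100 scaled reads. The count of calls depended on the test and on single libraries. On the recovered reads it was 100 with edgeR (66 higher and 34 lower) and 193 with DESeq2 (109 and 84), and without a filter on low values 67. It was 58, 32 and 55 without DMSO replicate 1, 2 or 3, 39 and 63 without Nutlin replicate 2 or 3, and 50 without N+PD24 replicate 2.

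Both responses can be set beside each other because they share no library. Across genes, which are not independent replicates, Pearson's r of the log2 responses was 0.885 and Spearman's correlation 0.857. Nutlin changed 3523 genes more than 2-fold without palbociclib (21.5%, with 12.7% induced and 8.79% repressed) and 2974 after it (18.2%, with 10.6% and 7.63%). Of the 3523 genes, 3451 (97.96%) had the same sign of response after palbociclib. The 2085 induced genes had a median log2 response of 1.91 without and 1.498 after pretreatment, and the 1438 repressed genes −1.35 and −1.15. These genes were selected on the response without palbociclib, which raises that median relative to the other.

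**Figure D1:**
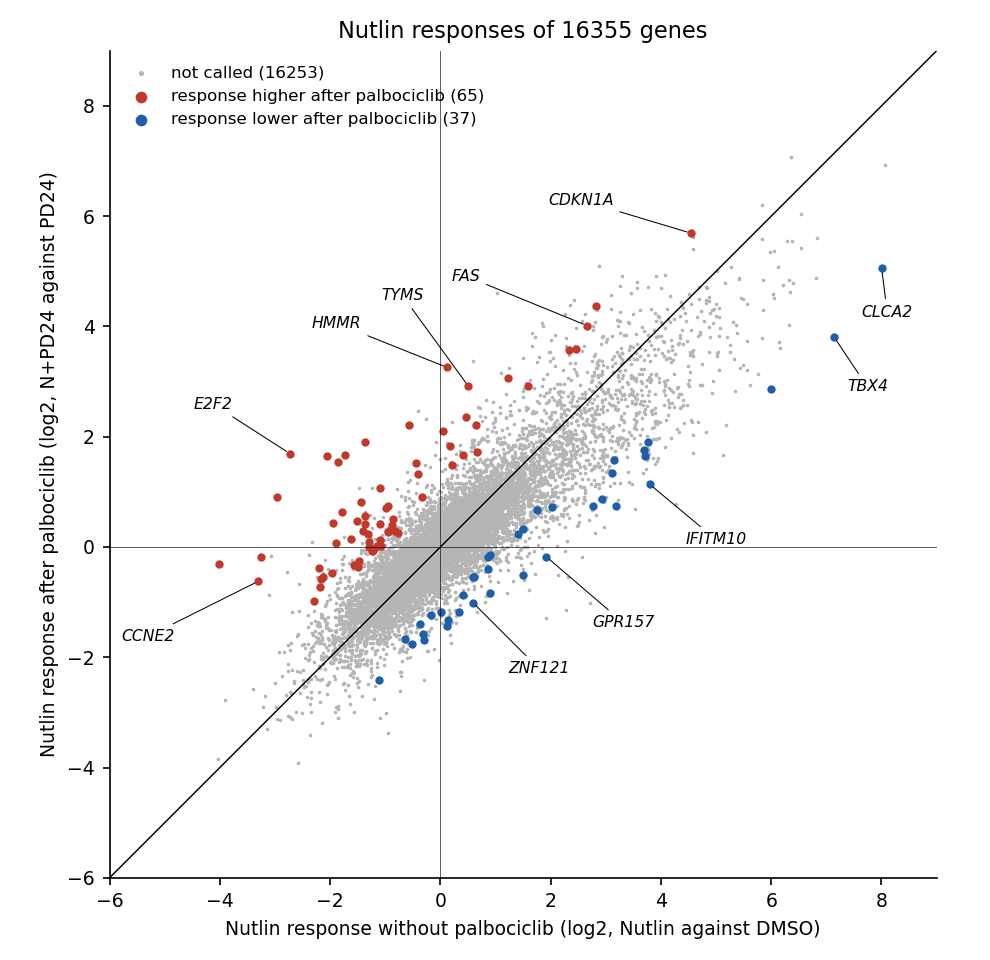
Log2 Nutlin response of each of 16355 genes without palbociclib (horizontal axis) and after palbociclib (vertical axis), estimated from 3 libraries per group, with the line of equal response. The 65 genes with a higher response after palbociclib (red) lie above the line, many of them at negative values on the horizontal axis, and the 37 with a lower response (blue) lie below it.

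Most of the genes with a higher response after palbociclib fell with Nutlin in cycling cells. Without palbociclib 45 of the 65 fell, where 27.4% of all genes fell. This response enters the interaction with a negative sign, so the choice of genes by a positive interaction favours falls here. After palbociclib 11 of these 45 rose, 4 still fell, and 30 had no call, which does not show that their fall was lost. WDR76, one of the 30, had a log2 response of −2.17 without palbociclib and −0.58 after it, just outside the threshold (limma adjusted p = 0.0502). Of the 65 genes, 9 are on the list of G2/M and mitosis and 7 on that of G1/S and DNA replication. The 11 that turned from a fall to a rise were CENPA, CENPL, CEP55, E2F2, ERCC6L, ESCO2, KIF2C, MCM10, RAD54L, RTKN2 and TP73. A further 9 genes had no call without palbociclib and rose after it, and 11 rose in both. The count of 65 was 43, 27 and 39 without DMSO replicate 1, 2 or 3, 32 without Nutlin replicate 2 and 42 without N+PD24 replicate 2, and 109 with DESeq2.

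The promoters of several of these genes hold the short motifs of cell cycle control, and a few are shown so that the letters can be seen beside the values. They are 30-base windows upstream of the RefSeq transcription start (GRCh38.p14), written 5′ to 3′ on the strand of the gene, with the match on either strand in capitals. The E2F-type motif was searched as TTTGGCGC, TTTCCCGC or TTTCGCGC, and the cell cycle homology region (CHR), bound by the DREAM complex, as TTTGAA. The HMMR window holds another CHR match, left in lower case directly before the marked one.
E2F2 (E2F-type, minus strand, chr1:23531257-23531286): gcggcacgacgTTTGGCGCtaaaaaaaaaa
TYMS (E2F-type, plus strand, chr18:657603-657632): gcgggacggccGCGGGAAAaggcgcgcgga
PCNA (E2F-type, minus strand, chr20:5126663-5126692): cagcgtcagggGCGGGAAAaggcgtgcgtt
CENPA (CHR, plus strand, chr2:26786026-26786055): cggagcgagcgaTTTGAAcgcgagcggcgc
HMMR (CHR, plus strand, chr5:163460598-163460627): gggagatttgaaTTTGAAaccggtagggag
HJURP (CHR, minus strand, chr2:233854629-233854658): gacgcaaatttgTTTGAAaggcccaatcag

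Promoter sequence from 250 bases before to 50 after the start was at hand for 12311 of the 16355 genes tested, 55 of the 65 genes with a higher response and 30 of the 37 with a lower one. At least 1 E2F-type match stood in 18.2% of the promoters of the higher group, 3.33% of the lower group and 4.23% of all. A CHR match stood in 23.6%, 10.0% and 10.4%. A match is a string of letters in this window and not a shown binding site.

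E2F2, an activating E2F transcription factor (GRCh37 chromosome 1, 23832930 to 23857725, minus strand), had the largest interaction among the genes named here. It measured 585, 518 and 530.1 scaled reads in DMSO, 78.7, 76.7 and 88.9 in Nutlin, 21.0, 16.1 and 24.1 in PD24 and 49.2, 91.9 and 67.6 in N+PD24. Nutlin thus brought every library below DMSO in cycling cells, and every N+PD24 library above PD24, while Nutlin and N+PD24 overlapped. The interaction was 4.42 ± 0.31 (SE, limma adjusted p = 2.04e-05). In group means this was a fall to 0.15-fold against a rise of 3.41-fold.

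Genes of DNA replication and nucleotide supply showed both kinds of change. TYMS, thymidylate synthase (chromosome 18, 657653 to 673578, plus strand), measured 2361, 2486 and 2450.2 scaled reads in DMSO and 3442, 3711 and 3242 in Nutlin. It stood at 56.9, 45.9 and 38.8 in PD24 and at 384, 342 and 350.0 in N+PD24. No pair of groups overlapped, and the rise was 1.43-fold in cycling and 7.60-fold in pretreated cells (interaction 2.41 ± 0.19, limma adjusted p = 3.43e-05). PCNA, the sliding clamp of DNA polymerases and a p53 target, lay at 7233, 7940.5 and 8994 in DMSO and 9868, 8779 and 8467 in Nutlin, which overlapped. It went from 1389, 1053 and 1315 in PD24 to 4603, 4265 and 4388 in N+PD24, a 3.53-fold rise without overlap (interaction 1.66 ± 0.17, limma adjusted p = 0.000403).

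MCM10, which loads the replication fork machinery, averaged 33.4 scaled reads in PD24, where its libraries spread most (62.9, 24.8 and 12.4). It was at 83.4, 91.1 and 88.6 in N+PD24, above each PD24 library, while it fell from 2142, 2288 and 2487 in DMSO to 583, 499 and 587 in Nutlin. The interaction was 3.71 ± 0.53 (limma adjusted p = 0.00417). CCNE2, cyclin E2, fell in both settings, from 2017, 1929 and 2763 to 239, 161 and 289 without palbociclib and from 36.9, 41.0 and 30.7 to 19.1, 21.3 and 29.9 after it. Its interaction of 2.68 ± 0.33 (limma adjusted p = 0.00159) therefore reflects a smaller fall. ZNF367, a zinc finger gene, fell from 1484, 1543 and 1947 to 148, 154 and 218 with Nutlin alone and overlapped between PD24 and N+PD24 (interaction 3.07 ± 0.45). Of the 63 genes of the list of G1/S and DNA replication, 9 had a higher interaction at an adjusted p under 0.05, where 0.44% of all genes did. Only CDC7, the kinase that activates the MCM helicase, was lower (−1.23, limma adjusted p = 0.0152, against 0.263% of all genes). The median interaction of the list was 0.18, beside 0.0057 over all genes.

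Of 76 genes on the list of G2/M and mitosis, 9 were called higher (0.397% of all genes) and 0 lower (0.226%). HMMR, a spindle-associated hyaluronan receptor (chromosome 5, 162887209 to 162918947, plus strand), measured 3724, 3780.5 and 4057 scaled reads in DMSO and 5667, 3567 and 3651 in Nutlin, which overlapped. It rose from 57.9, 50.9 and 43.9 in PD24 to 578, 404 and 508 in N+PD24, a 9.77-fold difference (interaction 3.13 ± 0.25, limma adjusted p = 3.72e-05). CENPA, the centromeric histone H3 variant, fell from 950.3, 1048 and 1189 to 347, 223 and 316 without palbociclib and rose from 6.98, 13.7 and 14.6 to 32.8, 39.998 and 32.1 after it (interaction 3.41 ± 0.35, limma adjusted p = 0.000403). HJURP, the chaperone that deposits CENPA, fell from 3613, 3668 and 4138 to 1069, 853 and 1048 and overlapped between PD24 and N+PD24 (interaction 2.39 ± 0.27). The kinesin KIF2C (1.93 ± 0.23), the DNA translocase ERCC6L of anaphase bridges (3.27 ± 0.46) and the phosphatase subunit CDCA2 (1.99 ± 0.32) had interactions in the same direction. The interaction of FBXO5, the inhibitor of the anaphase-promoting complex, was 1.31 ± 0.27, and it fell in both settings. HJURP, ERCC6L, CDCA2 and FBXO5 are not on the list of G2/M and mitosis and are not in its count.

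All 76 genes of the G2/M and mitosis list were lower in PD24 than in DMSO, with a median log2 difference of −5.29, where 19.0% of all genes fell. Their median Nutlin response was −0.93 without palbociclib and −0.29 after it. With Nutlin 57 of the 76 fell and 0 rose in cycling cells, and 27 fell and 9 rose in pretreated cells (fell 23.4% and rose 19.9% of all genes). Interactions were positive for 65 and negative for 11, beside 8299 and 8056 over all genes, with a median of 0.58. The 95% interval lay wholly above 0 for 45 of the 76 and wholly below 0 for 3. These intervals are not adjusted for the number of genes, and genes of a list are not independent replicates. Over all 16355 genes 1818 had an unadjusted p under 0.05 by limma, in either direction. At an adjusted p under 0.05, 9 were higher in the reported fit, 23 with DESeq2 and 5 without DMSO replicate 2 or Nutlin replicate 2. The summed level of the list was 13400 to 14700 CPM in DMSO, 7170 to 9350 in Nutlin, 688 to 772 in PD24 and 577 to 657 in N+PD24. The sum therefore still fell with Nutlin after palbociclib, and N+PD24 did not overlap with PD24. Fewer cells in a cycle phase and less RNA per cell cannot be told apart in these bulk samples.

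Among the 65 genes, 63 were lower in PD24 than in DMSO. This contrast shares the DMSO and PD24 libraries with the interaction, with opposite sign, so errors in them favour that pattern. The contrast of the endpoints, N+PD24 against Nutlin, enters the interaction with a positive sign, and there 46 of the 65 were lower (18.4% of all genes), 12 had no call and 7 were higher. On the linear scale of group means E2F2 lost 463 scaled reads with Nutlin in cycling cells and gained 49.2 in pretreated ones. The mean of HMMR changed by 441 and 446. The value of 441 rested on Nutlin replicate 1 (5667), while replicates 2 and 3 (3567 and 3651) lay below each DMSO library. A test of fold responses thus weighs a small absolute change on a low baseline as heavily as a large one on a high baseline.

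**Figure D2:**
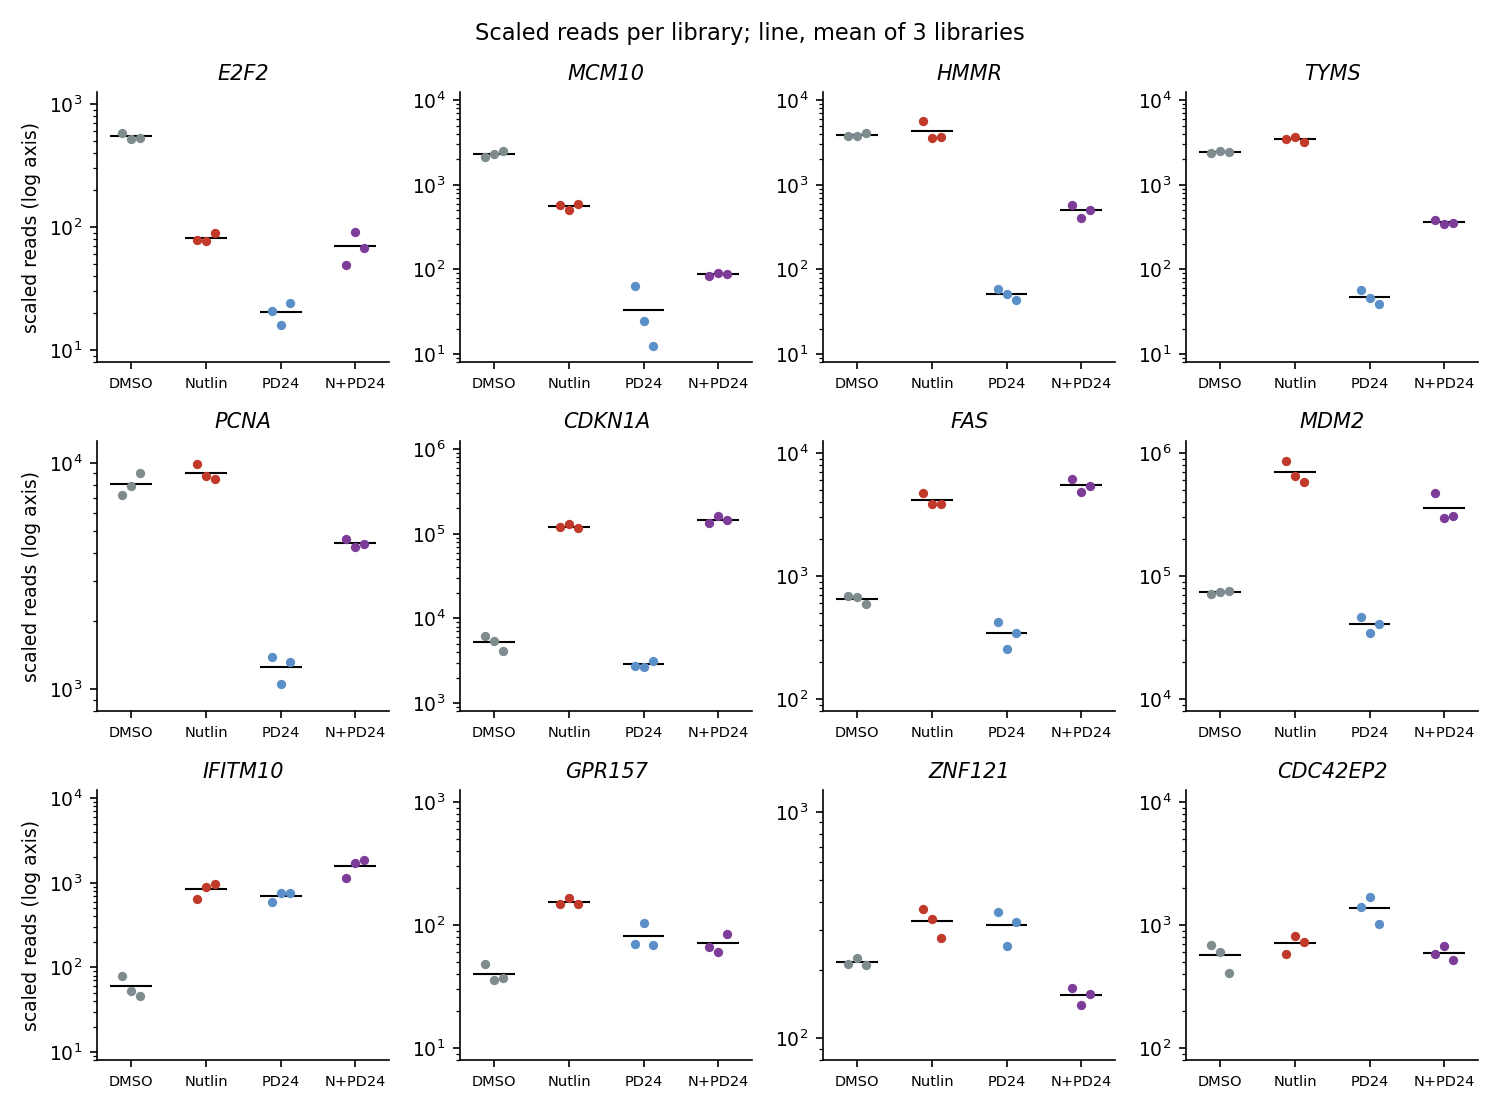
Scaled reads (log axis) of 12 genes in each of the 3 libraries of DMSO, Nutlin, PD24 and N+PD24, with a line at the group mean. E2F2 and MCM10 fall with Nutlin alone and rise from PD24 to N+PD24, CDKN1A and FAS rise in both settings from a lower start in PD24, and ZNF121 and CDC42EP2 fall from PD24 to N+PD24.

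Direct targets of p53 were induced with and without pretreatment, and 10 of 110 responded more strongly after palbociclib. Of the 115 targets listed, 110 were tested, 78 rose without palbociclib (23.4% of all genes), 77 rose after it (19.9%) and 70 rose in both. At an adjusted p under 0.05, 10 had a higher interaction (0.44% of all genes) and 0 a lower one (0.263%). These were E2F7, PCNA, ACER2, FAS, POLH, TRAF4, EDA2R, CDKN1A, BTG2 and DDB2. The median interaction over the 110 was −0.07. For 70 of them the 95% interval lay within 1 log2 unit of 0, beside 10391 of all 16355 genes (63.5%). The count of 10 was 2 without DMSO replicate 2, 4 without Nutlin replicate 2, and 6 without DMSO replicate 1 or 3, Nutlin replicate 3, PD24 replicate 1 or 2 or N+PD24 replicate 1 or 3. The count of 0 lower was 1 with DESeq2 and 1 without PD24 replicate 1. The list names genes widely described as p53 targets and does not derive from these libraries.

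CDKN1A, which encodes p21 (chromosome 6, 36644237 to 36655114, plus strand), measured 6219, 5464 and 4098 scaled reads in DMSO and 118740, 128910 and 116240 in Nutlin. It measured 2739, 2684 and 3131 in PD24 and 134020, 161270 and 147100 in N+PD24. Every Nutlin-treated library exceeded every untreated one, all PD24 libraries lay under DMSO and all N+PD24 libraries above Nutlin. The induction was 23.1-fold without and 51.7-fold after palbociclib (interaction 1.14 ± 0.19, limma adjusted p = 0.0141). The endpoint difference between N+PD24 and Nutlin was 0.28 on the log2 scale (limma adjusted p = 0.12), and the baseline difference between PD24 and DMSO −0.87. Leaving out single libraries kept the interaction between 1.01 and 1.31.

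The death receptor FAS (chromosome 10, 90750414 to 90775542, plus strand) rose from 688, 674 and 591 to 4715, 3869 and 3847 without palbociclib. After it, FAS rose from 427, 256 and 346 to 6174, 4836 and 5368, again without overlap in either setting (interaction 1.35 ± 0.23, limma adjusted p = 0.0158). POLH, the translesion polymerase eta, rose 3.02-fold and 7.62-fold (1.34 ± 0.18, adjusted p = 0.00273 by limma), ACER2, an alkaline ceramidase, 7.24-fold and 21.2-fold (1.54 ± 0.30), and the antiproliferative gene BTG2 5.56-fold and 12.2-fold (1.13 ± 0.23). Over 21 alternatives, BTG2 lost its call in 13 (highest adjusted p 0.138, by limma) and ACER2 in 11 (highest 0.107). E2F7, a repressive E2F that is also a p53 target, spread from 2139 to 3148 in DMSO and from 1348 to 2145 in Nutlin, and went from 241 to 489 in PD24 to 699.5 to 1418 in N+PD24. Its interaction of 1.96 lost its call in 13 of the 21 alternatives (highest adjusted p 0.132, by limma). NEURL1B, a ubiquitin ligase, did not pass the test without palbociclib (1445, 1286 and 1262 against 1629, 1233 and 1298) and rose from 21.0, 26.1 and 24.1 to 108, 93.6 and 114 after it (2.05 ± 0.21). For CDKN1A, FAS, POLH and ACER2 the baseline in PD24 was lower than in DMSO and the endpoints, N+PD24 and Nutlin, had no call. The baseline was also lower for BTG2, PCNA, E2F7 and TRAF4. Of these, BTG2 (log2 −0.60, limma adjusted p = 0.0102), PCNA (−1.03, 1.31e-05) and E2F7 (−0.90, 0.0232) ended lower in N+PD24 than in Nutlin. TRAF4 ended higher (0.78, limma adjusted p = 0.000747).

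Other well-known targets had no call. MDM2, the p53 ubiquitin ligase (chromosome 12, 69201957 to 69239324, plus strand), went from 71337, 74433 and 76234 scaled reads to 866970, 648220 and 580680 with Nutlin. After palbociclib it went from 46549, 34821 and 40563 to 469390, 296560 and 308080. Both rises were free of overlap, and the interaction was −0.10 with a 95% interval from −0.65 to 0.44. Its sign turned under another normalisation (0.55 with quantile normalisation). TP53I3, a quinone oxidoreductase, rose 9.55-fold and 6.97-fold (interaction −0.45, interval −0.85 to −0.06, limma adjusted p = 0.372), and BBC3, the BH3-only protein PUMA, 6.66-fold and 4.81-fold (−0.58, interval −1.70 to 0.55). An adjusted p above 0.05 does not show that the responses are equal, and for BBC3 the interval includes a more than 2-fold weaker response.

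The genes of the palbociclib target complex and of its substrate RB also had no call. The interaction was 0.09 for CDK4 (interval −0.32 to 0.50), −0.29 for CDK6 (−0.63 to 0.04), −0.26 for cyclin D1, CCND1 (−0.52 to −0.01), and 0.15 for RB1 (−0.24 to 0.55), none with an adjusted p under 0.05 in limma. Within the list of 28 genes of cyclin D, CDK4/6 and RB family, 2 were called higher (0.397% of all genes). They were FBXO5 (1.31 ± 0.27) and the CDK inhibitor CDKN2D (1.18 ± 0.19). CDKN2D fell from 975, 1037 and 990.1 to 438, 406 and 507 with Nutlin alone and lay at 164, 164 and 156 in PD24 against 193, 162 and 142 in N+PD24, where the groups overlapped.

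The 37 genes with a lower response after palbociclib were of mixed function and fell into 5 patterns. Of these, 12 rose in both settings but less after palbociclib, 9 rose without it and had no call after it, 8 had no call without it and fell after it, 4 turned from a rise to a fall, and 4 fell in both but more after it. In PD24 against DMSO 19 of the 37 were higher (17.6% of all genes), 15 had no call and 3 were lower. In N+PD24 against Nutlin 26 were lower, 10 had no call and 1 was higher (17.9% of all genes). Both contrasts enter the interaction that chose these genes, so the selection favours higher values in the first and lower values in the second. The count moved both ways with the processing. It was 84 with DESeq2, 61 with a pseudocount of 5 and 18 without a filter on low values. It was 15, 5 and 16 without DMSO replicate 1, 2 or 3, 18, 7 and 13 without Nutlin replicate 1, 2 or 3, 21 without PD24 replicate 3, and 13 and 8 without N+PD24 replicate 1 or 2.

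IFITM10, a member of the interferon-induced transmembrane family (chromosome 11, 1753636 to 1771825, minus strand), was induced by either drug. It measured 80.1, 52.8 and 46.2 scaled reads in DMSO, 649, 883 and 967 in Nutlin, 594, 761 and 748 in PD24 and 1132, 1709 and 1848 in N+PD24. Nutlin alone and PD24 alone overlapped, and every N+PD24 library was above both. The rise with Nutlin was 14.0-fold without and 2.23-fold after palbociclib (interaction −2.67 ± 0.32, limma adjusted p = 0.00141), while the linear gains were 773.5 and 862 scaled reads. EPS8L2, an actin regulator, rose 13.5-fold and 3.18-fold, with baselines of 24.1, 11.95 and 14.8 in DMSO and 74.8, 96.8 and 55.6 in PD24. Its endpoints overlapped at 167, 230.0 and 291 in Nutlin and 163, 256 and 303 in N+PD24 (interaction −2.06 ± 0.43, limma adjusted p = 0.0463).

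Other genes of this kind ended lower after both drugs. GPR157, a G protein-coupled receptor, rose from 48.2, 35.9 and 36.9 to 149, 166 and 149 with Nutlin alone and overlapped between PD24 (69.8, 104 and 68.8) and N+PD24 (67.0, 60.4 and 85.3). Its interaction was −2.10 ± 0.30 (limma adjusted p = 0.00454). TLL2, a tolloid-like metalloprotease, reached 165, 183 and 169 in Nutlin and 83.4, 87.7 and 95.2 in N+PD24 from at most 27.1 in either control (−1.87 ± 0.35). ARHGAP30 (−1.94 ± 0.37) and the cAMP phosphodiesterase gene PDE4C (−1.31 ± 0.26) followed the same order. Outside the rule for named genes and chosen after their values were seen, TBX4 and CLCA2 had log2 responses of 7.14 and 8.00 without palbociclib and 3.80 and 5.06 after it. CLCA2 had at most 0.924 scaled reads in DMSO, so its fold there has no firm base.

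Another set of these genes had no call with Nutlin alone, or rose, and fell with Nutlin after palbociclib. CDC42EP2, an effector of the GTPase CDC42, measured 692, 599.7 and 412 in DMSO and 586, 816 and 727 in Nutlin, which overlapped, and went from 1391, 1689.6 and 1014 in PD24 to 584, 673 and 519 in N+PD24 (interaction −1.52 ± 0.30, limma adjusted p = 0.0347). The mitochondrial prolyl-tRNA synthetase gene PARS2 (−1.38 ± 0.29), the methyltransferase gene METTL12 (−1.46 ± 0.30) and the zinc finger gene ZNF581 (−1.55 ± 0.26) had no call with Nutlin alone and fell to 0.316-fold, 0.399-fold and 0.367-fold after palbociclib. ZNF121, another zinc finger gene, rose from 212, 226 and 211 to 371, 337 and 278 and fell from 362, 256 and 328 to 167, 140.4 and 157, without overlap in either setting (−1.60 ± 0.22, limma adjusted p = 0.00413). C21orf58 also turned, from a 1.89-fold rise to a fall to 0.557-fold (−1.74 ± 0.35). Over 21 alternatives METTL12 lost its call in 14, PARS2 in 13, C21orf58 in 12 and CDC42EP2 in 10. ZNF581 lost it in 2 and ZNF121 in 0.

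The study counted reads with HTSeq set to the reverse strand and to union mode, but the kit is not stated to mark strand. How reads in exonic bases shared by neighbours were counted is therefore not known. Several named genes share exonic bases with a neighbour. This holds on the opposite strand for CDKN1A with DINOL, FAS with ACTA2, POLH with GTPBP2, TYMS with ENOSF1 and TYMSOS, HMMR with HMMR-AS1, HJURP with MROH2A, CCNE2 with INTS8, MDM2 with CPM, CDK4 with TSPAN31, CCND1 with LTO1, CDK6 with CDK6-AS1, TP53I3 with FAM228B, BBC3 with MIR3191, METTL12 with LBHD1 and EPS8L2 with DEAF1. On the same strand it holds for CENPA with SLC35F6, ZNF581 with CCDC106 and ZNF580, and METTL12 with SNORA57.

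Lists of other pathways, histones aside, held no called gene, with small shifts in their medians. For 40 genes of ribosome biogenesis the median Nutlin response was −0.50 without palbociclib and −0.76 after it, 27 and 36 of them fell (27.4% and 23.4% of all genes), and 35 of 40 interactions were negative (8056 of 16355 over all genes) with a median of −0.17, beside 0.0057 over all genes. The 95% interval lay within 1 log2 unit of 0 for 38 of these 40 (63.5% of all genes). For 24 genes of cholesterol synthesis the median interaction was 0.24, positive for 21, with 1 gene rising in each setting (23.4% and 19.9% of all genes). The medians were −0.11 for 42 immediate-early and ERK feedback genes, 0.11 for 33 interferon-stimulated genes, 0.14 for 36 genes of the ATF4 and unfolded protein response, −0.14 for 20 heat shock genes, 0.06 for 26 NRF2 targets, 0.02 for 32 genes of hypoxia and glycolysis, −0.05 for 50 extracellular matrix genes and −0.13 for 23 cytokines and chemokines. Of 33 histone genes tested 1 was called higher (0.397% of all genes), HIST1H2BJ.

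**Figure D3:**
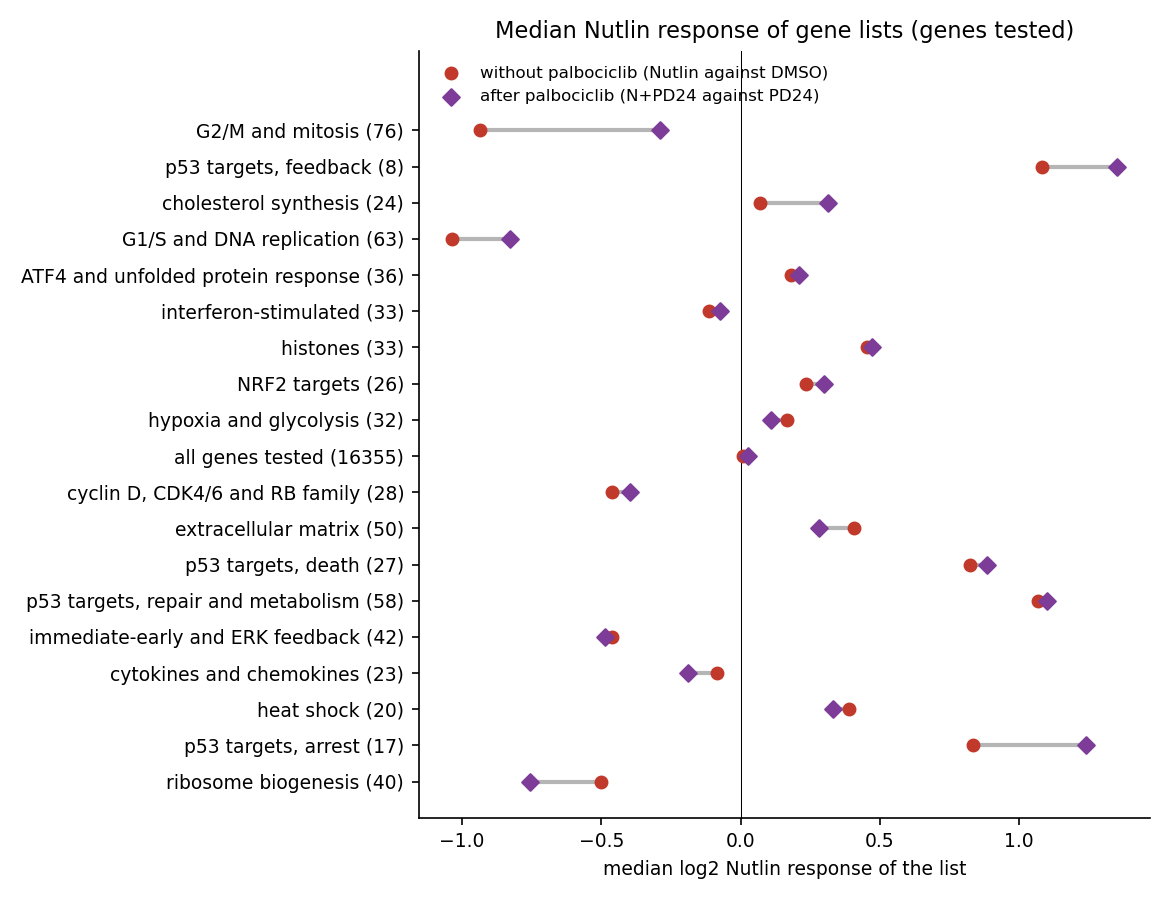
Median log2 Nutlin response of each gene list without palbociclib (red circles) and after palbociclib (purple diamonds), ordered by the median interaction, with the number of genes tested in brackets. The G2/M list moves from −0.93 to −0.29 and ribosome biogenesis from −0.50 to −0.76. For p53 targets of arrest the medians of the responses rise from 0.84 to 1.24 although the median interaction is −0.15.

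The response to Nutlin with palbociclib kept on, N+PD30 against PD30, used 6 libraries that did not enter the choice of the 102 genes, with 12704845 to 35963015 counts each. There 14 of the 61 higher genes tested rose (6.5% of all genes) and 7 fell (6.24%), with a median of −0.17, beside −1.097 without palbociclib and 0.48 after its removal. The count that rose was 14 or 15 under each omission of a PD30 or N+PD30 library. The count that fell was 0 without PD30 replicate 1 or N+PD30 replicate 1 (the shallowest library) and 1 without PD30 replicate 2 or 3. It was 2 without N+PD30 replicate 2 and 9 without N+PD30 replicate 3, so the falls depended on single libraries. Over all genes 2024 rose or fell at an adjusted p under 0.05. That count was 797, 1142 and 807 without PD30 replicate 1, 2 or 3. It was 842, 971 and 2971 without N+PD30 replicate 1, 2 or 3, so the shares of all genes moved as well. The 9 p53 targets among the 65 genes all rose there, where 84 of the 110 p53 targets tested rose. CDKN1A went from 3480.2, 3069.9 and 3689 to 69608, 77590 and 58009, ACER2 from 6.34, 9.22 and 12.5 to 364, 399 and 485, and BTG2 from 176, 214 and 222 to 4054, 5013 and 5842. TYMS rose from 76.0, 67.6 and 57.0 to 271, 305 and 254. Of the 10 tested genes that turned from a fall to a rise after palbociclib removal, 0 rose with the drug kept on, 9 had no call and 1, CEP55, fell. The difference between removal and continuation passed an adjusted p under 0.05 in limma for 3 of these 10, E2F2, ERCC6L and CEP55. Among those that missed it were KIF2C (1.26, adjusted p = 0.0597 by limma), MCM10 (1.66, 0.0902), RTKN2 (1.32, 0.0946) and CENPA (1.21, 0.111).

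HMMR stood at 119, 93.0 and 102 in PD30 and 90.3, 127 and 124 in N+PD30, which overlapped. E2F2 also overlapped, at 29.0, 19.2 and 15.6 against 20.9, 12.6 and 14.9. The Nutlin response after removal minus that with the drug kept on was 3.12 ± 0.27 for HMMR (limma adjusted p = 0.000166), 2.03 ± 0.45 for E2F2 (0.0104), 1.35 ± 0.18 for CDKN1A (0.000873) and 2.42 ± 0.54 for ERCC6L (0.0107). Of the 61 higher genes tested, 15 had a higher response after removal at an adjusted p under 0.05 (4.64% of all genes) and 3 a lower one (9.33%), FAM83D, TRAF4 and BTG2. The count of 15 was 9 without PD24 replicate 2 or PD30 replicate 1. For BTG2 the difference was −1.02 ± 0.25 (limma adjusted p = 0.019). For TYMS it was 0.85 ± 0.25 (limma adjusted p = 0.0358), and for PCNA 0.22 ± 0.16 (0.378). This difference shares PD24 and N+PD24 with the interaction, so for genes chosen by the interaction it is not an independent test.

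Of the lower genes, 37 were tested with palbociclib kept on, where 6 rose (ARHGAP30, CLCA2, EPS8L2, IFITM10, TBX4 and UNC45B), 4 fell (CDC7, TET1, ZNF121 and ZNF331) and 27 had no call. Under omissions of 1 PD30 or N+PD30 library, 4 to 6 rose and 0 to 3 fell. Their median response was 0.90 without palbociclib, −0.18 after its removal and 0.05 with it kept on. CDC42EP2 overlapped between PD30 (1071, 1413 and 1034) and N+PD30 (1538, 1392 and 1216), and its response after removal minus that with the drug kept on was −1.45 ± 0.26 (limma adjusted p = 0.00409). By this measure 10 of the 37 were lower after removal at an adjusted p under 0.05 (9.33% of all genes) and 3 higher (4.64%), ITGAD, TLL2 and TBX4. PARS2 (−1.62), ZNF581 (−1.44) and METTL12 (−0.94) were among the lower ones, and TLL2 went the other way (1.59 ± 0.32, limma adjusted p = 0.00708). The test was not passed for GPR157 (−0.97, limma adjusted p = 0.0803), ARHGAP30 (0.47), IFITM10 (0.36), PDE4C (0.30), EPS8L2 (0.03), ZNF121 (−0.38) and C21orf58 (−0.85). Over all genes the Nutlin response differed between removal and continued palbociclib for 1326 of 15886 genes (8.35%), 534 higher (3.36%) and 792 lower (4.99%) after removal. That count was 836 without N+PD24 replicate 2 and 867 without PD30 replicate 1.

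**Figure D4:**
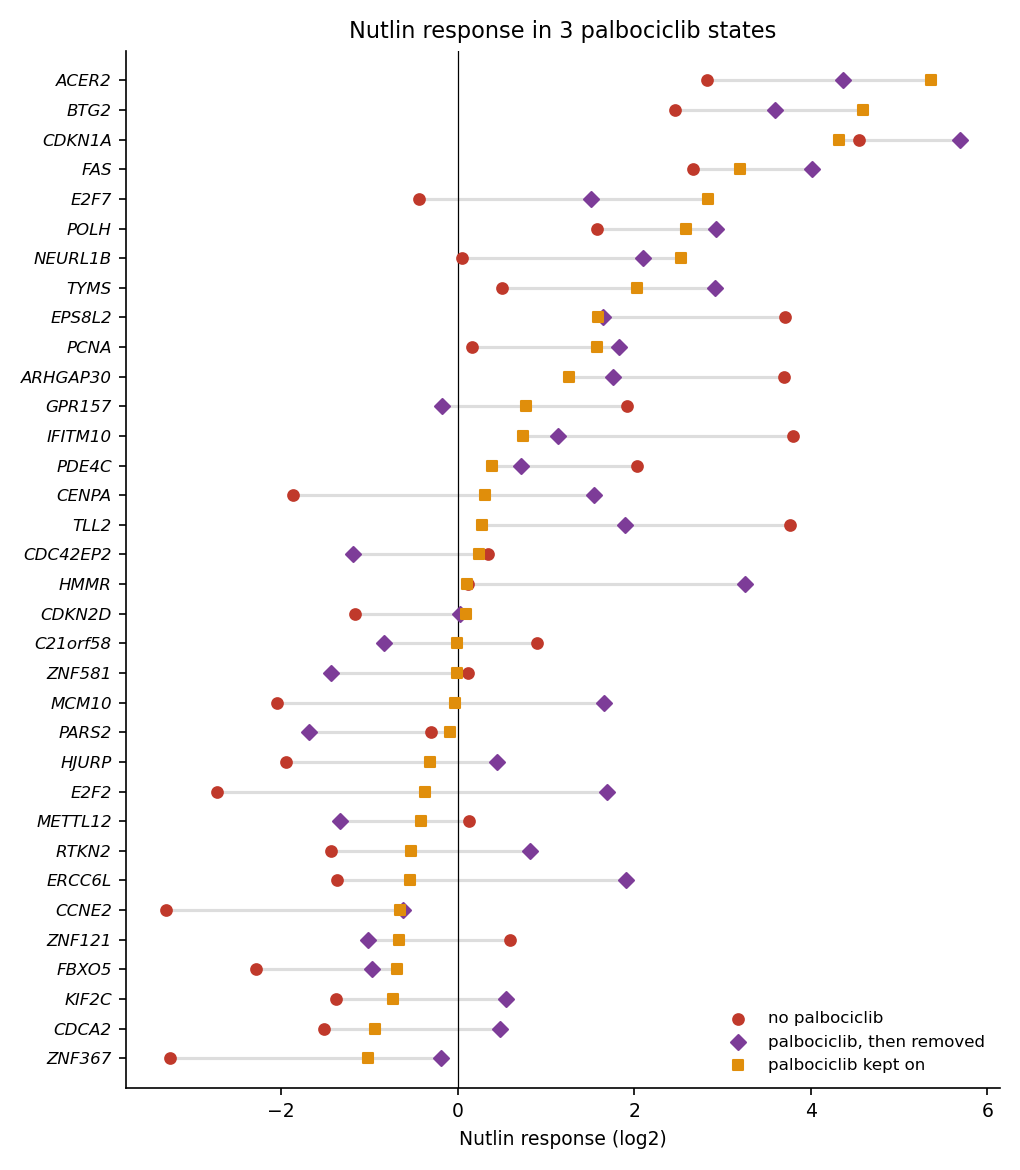
Log2 Nutlin response of the 34 named genes with a called interaction, without palbociclib (red circles), after its removal (purple diamonds) and with it kept on (orange squares), ordered by the last. ACER2, BTG2 and CDKN1A are positive in all 3 states, whereas HMMR and E2F2 are positive by over 1 log2 unit only after removal of palbociclib.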

How the data were processed

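RNA was sequenced from SJSA-1 cells as single reads, after preparation with the TruSeq RNA LT kit. Per the submitters' processing notes and the study's methods, the authors aligned reads to hg19 with TopHat and Bowtie2 and counted them per gene with HTSeq 0.6.0. The authors deposited raw read counts for all groups here except N+PD24, whose deposited signal values are counts divided by 1 factor per library. These came back as whole reads for 100% of values (tolerance 0.001 reads). Tables with the authors' fold changes and p-values for Nutlin against DMSO, and with mean levels, were not used.

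Blank or summary rows did not occur in the 23368 gene rows. The symbols of 28 rows had been turned into dates, and none is named. Values were scaled by TMM effective library sizes, and genes with at least 10 scaled reads in at least 3 of the 12 libraries were tested. The model was limma 3.58.1 with an abundance trend on log2(scaled reads + 1), so fold changes of low genes are understated, in R 4.3.3. The planned count tests, edgeR 4.0.16 (quasi-likelihood) and DESeq2 1.42.0, ran on the recovered reads as alternatives, with 100 and 193 genes called. The difference from continued palbociclib was fitted on its own 12 libraries. The procedure was tested on simulated counts. Error bars are SE of the model, and n is 3 libraries in each group.

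Named genes were the 12 largest interactions in each direction among called genes with a mean of at least 10 scaled reads in each group and 100 in 1, without clone-like or non-coding symbols, plus CDKN1A, MDM2, TP53I3, BBC3, CDK4, CDK6, CCND1 and RB1, plus up to 3 genes of each list. The design, genes and lists were chosen with earlier results of these data known. Gene positions came from GENCODE lifted to GRCh37. By the rule used, replicate numbers were not taken as pairs: 13 of 18 same-numbered pairs had a correlation of deviations over 0.1 (range −0.358 to 0.692). The median was 0.289 for same-numbered pairs and −0.106 for other pairs. Of the 12 libraries, 11 correlated best with one of their own number, so a pairing is not excluded.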

Additional observations from a re-analysis of the deposited data

Results flagged for a closer look

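The Nutlin response differed between settings by a test of the difference itself for 102 genes with palbociclib given first, and for 1326 genes between its removal and its continuation. For the named genes the interaction was 4.42 for E2F2, 3.71 for MCM10, 3.41 for CENPA, 3.27 for ERCC6L, 3.13 for HMMR, 3.07 for ZNF367, 2.68 for CCNE2, 2.41 for TYMS, 2.39 for HJURP, 2.26 for RTKN2, 2.05 for NEURL1B, 1.99 for CDCA2, 1.96 for E2F7, 1.93 for KIF2C, 1.66 for PCNA, 1.54 for ACER2, 1.35 for FAS, 1.34 for POLH, 1.31 for FBXO5, 1.18 for CDKN2D, 1.14 for CDKN1A and 1.13 for BTG2. Negative values were −1.31 for PDE4C, −1.38 for PARS2, −1.46 for METTL12, −1.52 for CDC42EP2, −1.55 for ZNF581, −1.60 for ZNF121, −1.74 for C21orf58, −1.87 for TLL2, −1.94 for ARHGAP30, −2.06 for EPS8L2, −2.10 for GPR157 and −2.67 for IFITM10. With 3 libraries in each group, no test for single outlying libraries was made.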

How the results depend on the processing

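All 102 interactions kept their direction under edgeR, DESeq2, the abundance trend left out, 3 other scalings, a pseudocount of 5, no filter and the replicate block, and under each omission of 1 library those tested did too. The calls varied more. Of the 102 genes, edgeR called 94, DESeq2 100 and the fit with no filter 63. The total was 193 with DESeq2 and 67 with no filter on low values. The higher genes numbered 109 with DESeq2. The lower genes numbered 84 with DESeq2, 61 with a pseudocount of 5 and 18 with no filter. DESeq2, which called the most, put 56.5% of its calls in the higher direction, as did the fit without trend, against 63.7% in the reported fit and 73.1% with no filter. Over omissions of single libraries the total ran from 32 to 91, the higher genes from 27 to 64 and the lower genes from 5 to 33, with fewer libraries in the fit. The difference from continued palbociclib ran from 836 to 1496 genes. By adjusted p alone, without a fold limit, the Nutlin response comprised 8319 genes without palbociclib and 7091 after it, and the difference from continued palbociclib 2219.

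Replicate numbers are shared by all groups but did not pair the libraries by the rule used. The replicate block gave 178 calls, 106 higher and 72 lower, including all 102. At an adjusted p under 0.05 it gave 10 p53 targets a higher interaction and 2 a lower one. Of the 12 libraries, 11 correlated best with one of their own number, which is a hint from the data and not from the design.

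Of the 34 named genes with a called interaction, 16 kept an adjusted p under 0.05 in each of 21 alternatives, E2F2, HMMR, TYMS, PCNA, POLH, ZNF121, GPR157 and IFITM10 among them. For CDKN1A the highest adjusted p was 0.0594, and for EPS8L2 0.15. Calls were lost in 15 of the 21 alternatives for EPS8L2, 14 for METTL12 and FBXO5, 13 for PARS2 and 12 for PDE4C and C21orf58. CDK4 changed sign without Nutlin replicate 1 or PD24 replicate 1, within a range of −0.02525 to 0.1868 over omissions of single libraries. MDM2 changed sign with quantile normalisation (0.55) and without Nutlin replicate 1, PD24 replicate 1 or N+PD24 replicate 2, within −0.3021 to 0.07268. Depth limits the low genes: 3 of the 102 genes (CLCA2, UNC45B and CPNE5) had no DMSO library above 3 counts, and the median SE was 0.24 over all genes and 0.20 above a mean of 100 scaled reads.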

Other observations

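Genes with a zinc finger symbol (ZNF) stood out among the lower interactions, a grouping chosen after the values were seen. They were 7 of the 37 lower genes (18.9%) and 1 of the 65 higher genes, and 2.97% of all genes tested. Over the 486 ZNF genes tested, the median Nutlin response was −0.67 without palbociclib and −0.87 after it, and 314 had a negative interaction, with a median of −0.16. Their median level differed by 0.03 on the log2 scale between PD24 and DMSO.

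The higher genes include both TYMS and LIG1, genes of DNA synthesis that rose with Nutlin in both settings, LIG1 by 0.42 without palbociclib and 1.68 after it on the log2 scale (interaction 1.26, limma adjusted p = 0.0149). DDB2, a damage sensor of nucleotide excision repair, rose by 2.17 and 2.96, with an interaction of 0.79 (limma adjusted p = 0.0339) that lies under the 2-fold limit. TP73, the p53 relative that E2F induces, fell by 1.73 without palbociclib and rose by 1.67 after it (interaction 3.40, limma adjusted p = 0.00513). It had 6.21 to 6.98 scaled reads in PD24 and 12.3 to 37.4 in N+PD24. Its PD24 mean of 6.59 is under the level asked of named genes, and it was chosen after its values were seen.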
